A study of Mus musculus with 2 samples.

Results

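Corticosteroid receptors and a set of glucocorticoid-induced genes were followed across the cell classes of the mouse habenula. The set holds 10 of the 28692 genes of the count matrices, chosen by name: the receptors Nr3c1 and Nr3c2, and 8 genes known to be induced by glucocorticoids, Fkbp5, Nfkbia, Ddit4, Klf9, Cdkn1a, Tsc22d3, Errfi1 and Zbtb16. All 10 were present in both matrices. The habenula is a small epithalamic structure with a medial (MHb) and a lateral (LHb) nucleus. Droplet libraries were made from adult male C57BL/6 mice of 50 to 55 days, 1 library for a control group and 1 for a foot shock group, each from pooled punches of 4 mice, and no genetic change is given for either group. Mice of both groups were handled daily. Mice of the foot shock group were placed in the shock chamber for 10 min per day on 7 days and then received 30 shocks of 0.3 mA and 1 s over 60 min, while control mice came directly from the home cage. Tissue of shocked mice was taken straight after the session, and tissue of both groups was kept in a solution with blockers of transcription, translation and neuronal activity. With 1 library per group, a difference between the groups cannot be told apart from a difference between 2 libraries, and no test was made.

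Nr3c1 encodes the glucocorticoid receptor and Nr3c2 the mineralocorticoid receptor, which bind corticosterone in the cytoplasm, enter the nucleus and act as transcription factors. Corticosterone is released by the adrenal cortex during stress, and the mineralocorticoid receptor has the higher affinity, so that the glucocorticoid receptor is mostly engaged when hormone is high. Of the induced genes, Fkbp5 encodes a co-chaperone that lowers the hormone affinity of the receptor, Nfkbia the inhibitor of NF-kB, Ddit4 an inhibitor of the mTORC1 kinase, Tsc22d3 the leucine zipper protein GILZ, Cdkn1a the cell cycle inhibitor p21, Errfi1 a feedback inhibitor of the EGF receptor, and Klf9 and Zbtb16 zinc finger transcription factors. None of them responds to glucocorticoids alone: Nfkbia is also induced by NF-kB, Cdkn1a by p53 and Ddit4 by hypoxia and cellular stress.

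The 4 induced genes with the highest foot shock over control ratio in oligodendrocyte-like cells were Nfkbia, Cdkn1a, Ddit4 and Fkbp5, and their promoters are shown because the data below turn on them. The RefSeq promoter table (GRCm38.p6) matched 8 of the 10 genes, and Nr3c1 and Zbtb16 were not among them. The 250 bases before each annotated start were searched on both strands for ACANNNTGT (the core of the receptor's palindromic element), GGGNNNTTC (an NF-kB core) and TGACGTCA (the cyclic AMP response element), and no matches overlapped in the windows shown. Each run reads 5′ to 3′ on the gene's strand, with matches in capitals, and stops before the first base of an exon of the same gene in GENCODE vM21.
Nfkbia, chr12:55492648-55492897, minus strand: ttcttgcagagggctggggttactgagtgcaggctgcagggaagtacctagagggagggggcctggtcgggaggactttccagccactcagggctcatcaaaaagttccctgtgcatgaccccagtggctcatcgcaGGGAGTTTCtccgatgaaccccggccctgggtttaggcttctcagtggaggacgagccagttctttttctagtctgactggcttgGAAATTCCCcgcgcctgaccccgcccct
Cdkn1a, first start, chr17:29090729-29090975, plus strand: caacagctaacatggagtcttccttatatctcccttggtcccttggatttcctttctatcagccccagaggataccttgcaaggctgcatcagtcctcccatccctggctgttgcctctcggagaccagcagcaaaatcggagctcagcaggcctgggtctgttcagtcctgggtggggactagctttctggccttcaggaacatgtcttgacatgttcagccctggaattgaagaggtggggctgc
Cdkn1a, second start, chr17:29093519-29093768, plus strand: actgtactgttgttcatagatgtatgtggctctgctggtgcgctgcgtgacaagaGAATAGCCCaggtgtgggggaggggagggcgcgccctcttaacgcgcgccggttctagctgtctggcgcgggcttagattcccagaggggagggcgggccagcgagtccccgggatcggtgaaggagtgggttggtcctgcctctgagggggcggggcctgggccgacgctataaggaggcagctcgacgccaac
Ddit4, chr10:59951835-59952020, minus strand: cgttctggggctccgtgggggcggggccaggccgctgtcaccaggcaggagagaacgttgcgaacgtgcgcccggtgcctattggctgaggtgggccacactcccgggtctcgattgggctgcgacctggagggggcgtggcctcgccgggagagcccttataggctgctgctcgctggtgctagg
Fkbp5, chr17:28486150-28486399, minus strand: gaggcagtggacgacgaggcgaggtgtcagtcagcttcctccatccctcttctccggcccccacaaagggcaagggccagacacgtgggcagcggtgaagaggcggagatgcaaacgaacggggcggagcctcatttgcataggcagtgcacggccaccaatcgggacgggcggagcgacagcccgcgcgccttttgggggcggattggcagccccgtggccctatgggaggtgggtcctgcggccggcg
The Nfkbia window held 2 matches to the NF-kB core, GGGAGTTTC from 113 to 105 bases before the start and, on the other strand, GAAATTCCC from 28 to 20 bases before it. The second Cdkn1a window held 1 match, GAATAGCCC, on the other strand. The Fkbp5 window and the second Cdkn1a window lie inside the annotated span of their gene but in no exon of it, and an unclassified transcript on the opposite strand covers the second Cdkn1a window. Among all 32851 windows of the table, 5.84% held the receptor core, 11.8% the NF-kB core and 1.55% the cyclic AMP response element. Among the 12 windows of the matched members, 0 held the receptor core, 4 the NF-kB core (Cdkn1a, Klf9, Nfkbia and Nr3c2) and 1 the cyclic AMP response element (Errfi1). A match is a run of letters and no measured binding site, and a window of 250 bases leaves out distant elements.

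Cells were grouped without using any of these genes, and a class was named from marker genes, so that "oligodendrocyte-like" means a cluster with at least 3 of the 8 oligodendrocyte markers. The matrices held 23095501 unique molecular identifiers (UMIs) in control and 22189951 in foot shock, and 4880 and 4771 cells were kept, with medians of 2416.5 and 2698 UMIs; 32 cell barcodes were found in both libraries. In the foot shock library alone, 503 epithelial-like and 45 fibroblast-like cells were found, against 0 and 0 in control, and they enter none of the class values compared here. Where both libraries held 20 cells or more, a class was compared, which left 11; the largest were MHb-like (1216 control and 1675 foot shock cells), oligodendrocyte-like (1079 and 828) and LHb-like neurons (960 and 854). Own markers were plain in the MHb-like and oligodendrocyte-like classes. The 9 MHb markers summed to 6202 and 6603 in MHb-like cells (in the unit given below), and the 8 oligodendrocyte markers to 12108 and 12407 in oligodendrocyte-like cells. The 8 LHb markers summed to 2576 and 2688 in LHb-like neurons, 2441 and 2297 in other neurons and 2270 and 2618 in thalamus-like neurons. They did not set these classes apart, and LHb-like and other neurons were divided by Pou4f1, as given below. Levels are in CPM: the number of UMIs that a gene would have if the class in that library held 1000000 in all, each with an exact Poisson 95% interval. A ratio is the foot shock level over the control level with an exact conditional binomial 95% interval, and a gene was measured in a class where both libraries together held at least 20 of its UMIs. All intervals cover counting error only. Free RNA, the RNA outside cells, was read from barcodes of 10 to 100 UMIs.

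Nr3c1 RNA was found in glia, vascular cells and the neurons not named as habenular, and among the 11 classes compared between the libraries was lowest in the habenula neurons, with large differences within the LHb-like neurons that are given below. In control it was highest in endothelial-like cells at 249 CPM (177 to 340), followed by thalamus-like neurons at 207 (176 to 242), astrocyte-like cells at 197 (166 to 231), oligodendrocyte precursor-like cells at 167 (126 to 218) and oligodendrocyte-like cells at 161 (145 to 178). It was 141 in committed precursor-like cells, 109 in other neurons, 98.7 in mural-like cells and 97.3 in microglia-like cells. The intervals of the ratio between neighbours in this order held 1 from endothelial-like down to microglia-like cells, so these 9 classes form a series in which no neighbours separate. The step came next: LHb-like neurons were at 31.9 (26.7 to 37.7) and MHb-like neurons at 14.2 (11.1 to 17.9), against 32.4 in free RNA. Free RNA was estimated to make up 25.1% of LHb-like and 19.9% of MHb-like UMIs in control, and 16.3% and 14.6% in foot shock. With it subtracted, the Nr3c1 levels were 31.4 in LHb-like and 9.65 in MHb-like neurons of control. Microglia-like over LHb-like cells gave 3.05 (1.76 to 5.01), LHb-like over MHb-like neurons 2.24 (1.67 to 3.03) and oligodendrocyte-like cells over MHb-like neurons 11.3 (8.76 to 14.7).

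The same step was seen in the foot shock library. Endothelial-like cells were at 262 CPM (176 to 377), thalamus-like neurons at 155 (111 to 210) and oligodendrocyte-like cells at 111 (95.8 to 128), while LHb-like neurons were at 22.7 and MHb-like neurons at 15.1, against 25.7 in free RNA. Oligodendrocyte-like cells over MHb-like neurons gave 7.34 (5.67 to 9.56). Epithelial-like cells of that library were at 18.7 (11.8 to 28.0), below free RNA. Nr3c1 (ENSMUSG00000024431) lies on the minus strand of chromosome 18, from 39410545 to 39519421 in GENCODE vM21.

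**Figure D1:**
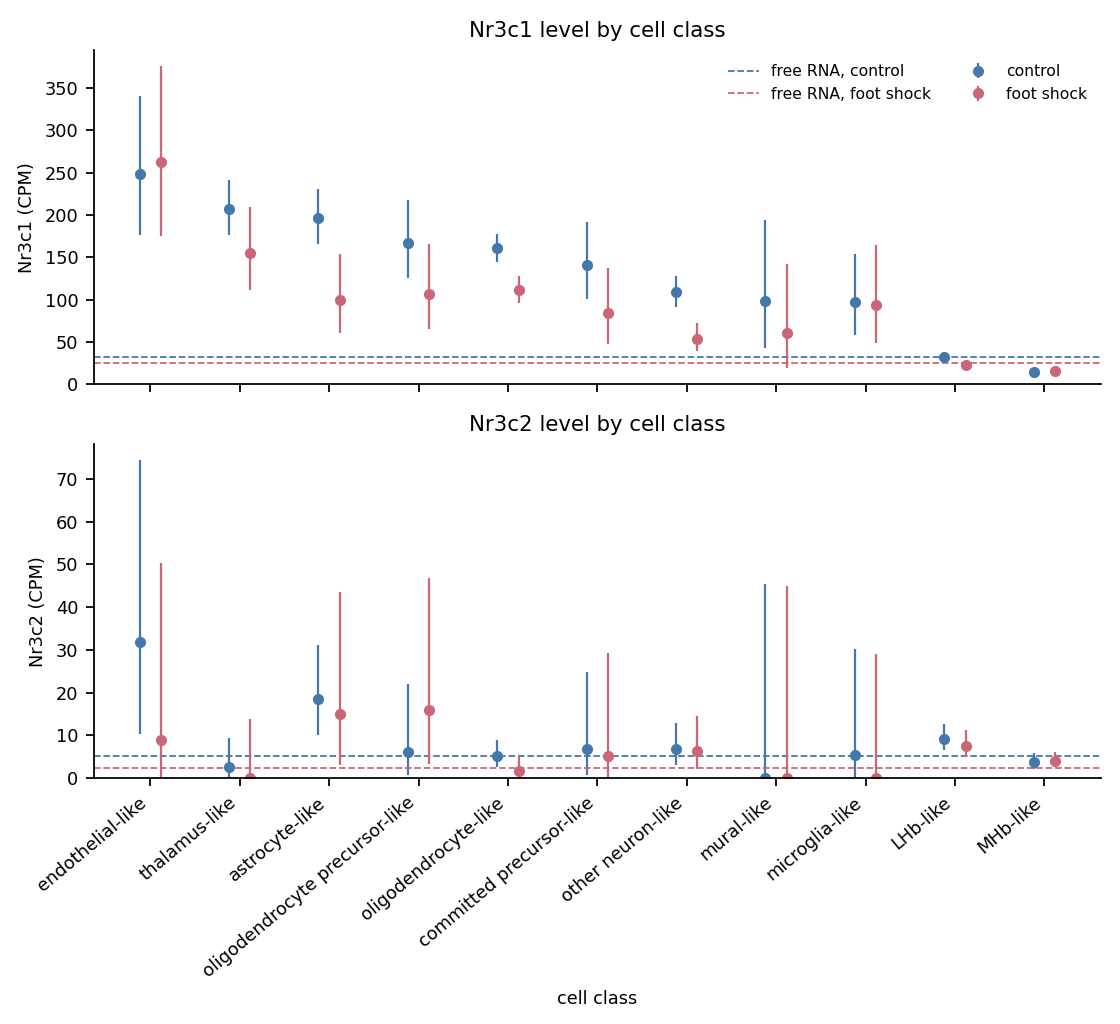
Nr3c1 (top) and Nr3c2 (bottom) in 11 cell classes, in CPM on a linear axis. Points are the summed class level in control and foot shock, bars are exact Poisson 95% intervals for counting error, and dashed lines are the free RNA levels; Nr3c1 in LHb-like and MHb-like neurons is at or under the lines, at 31.9 and 14.2 in control.

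Within the lateral habenula, Nr3c1 was uneven. LHb-like neurons were clustered again into parts, and 3 parts with little Pou4f1 (a habenula transcription factor) had been moved to the other neurons. Among the parts kept, the largest, with Pou4f1 at 1.10 per 10000, was at 61.7 CPM in control (264 cells, 64 UMIs) and 63.4 in foot shock (121 cells, 26 UMIs). The next, with Pou4f1 at 7.56 per 10000, was at 4.74 (163 cells, 4 UMIs) and 6.48 (162 cells, 5 UMIs). A part with Pou4f1 at 2.92 was at 61.1 in both libraries, and one with Pou4f1 at 6.20 was at 6.96 and 4.20. Levels above free RNA in both libraries were thus found in 3 of the 9 parts kept, those with Pou4f1 at 1.10, 1.39 and 2.92, the 3 lowest, and this order was seen after the parts had been made. The part at 1.39 rests on 9 and 8 UMIs, with intervals that held the free RNA levels. The part with the highest Pou4f1, 9.01, was at 45.4 CPM in control (11 UMIs), above free RNA, and at 4.59 in foot shock (1 UMI). The 2 libraries also held the LHb-like clusters in different proportions, the cluster led by Tmem255a and Peg10 making up 34.5% of LHb-like cells in control and 47.1% in foot shock.

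Nr3c2 was sparse in every class. LHb-like neurons held 39 UMIs in control and 24 in foot shock, or 9.28 (6.60 to 12.7) and 7.58 (4.86 to 11.3) CPM, above the free RNA levels of 5.27 and 2.33. MHb-like neurons were at 3.75 and 4.08. Astrocyte-like cells were at 18.6 (10.2 to 31.2) and 14.9 (3.08 to 43.6) from 14 and 3 UMIs, and endothelial-like cells at 31.9 in control from 5 UMIs. Oligodendrocyte-like cells were at 5.07 and 1.78, at or below free RNA. In control, LHb-like over MHb-like neurons gave 2.47 (1.39 to 4.53) and astrocyte-like over oligodendrocyte-like cells 3.67 (1.58 to 8.68). Neighbours in the order of the levels did not otherwise separate, apart from astrocyte-like over LHb-like cells at 2.01 (1.01 to 3.78). Mural-like cells held 0 Nr3c2 UMIs in both libraries, which allows up to 37.0 and 36.6 CPM. Nr3c2 (ENSMUSG00000031618) lies on the plus strand of chromosome 8, from 76899442 to 77245012.

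Of the UMIs of both receptors, the share from Nr3c2 was 22.5% (16.5 to 29.5, exact Clopper-Pearson) in LHb-like and 20.9% (13.1 to 30.7) in MHb-like neurons of control, and 3.06% (1.59 to 5.29) in oligodendrocyte-like cells, 1.24% (0.151 to 4.42) in thalamus-like neurons and 8.64% (4.81 to 14.1) in astrocyte-like cells. The foot shock library gave 25.0% and 21.2% in LHb-like and MHb-like neurons and 1.58% in oligodendrocyte-like cells. These shares compare classes; they are no ratio of receptor amounts, since the capture of the 2 transcripts may differ. In MHb-like neurons of control both receptors lay below free RNA, Nr3c1 at 14.2 against 32.4 CPM and Nr3c2 at 3.75 against 5.27. Nr3c1 in LHb-like neurons of control, at 31.9, was near free RNA. The part of free RNA in the shares was not tested. Over 25 sums of class and library, the 3 genes whose level, as log2(CPM + 10), followed Nr3c1 most closely among 10648 genes were Rhob (Pearson r 0.78), Ptn (0.73) and Sirt7 (0.71), and for Nr3c2 they were Gpd2 (0.80), H2-Ke6 (0.80) and Zfp319 (0.78). The sums share libraries and depth, and these values are given as a description.

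Nr3c1 itself was lower in foot shock in 8 of the 10 classes where it was measured, with an interval below 1 in 4 of them. In oligodendrocyte-like cells the ratio was 0.692 (0.578 to 0.827), in astrocyte-like cells 0.506 (0.300 to 0.809; 197 and 99.4 CPM), in other neurons 0.497 (0.345 to 0.702; 109 and 54.0) and in LHb-like neurons 0.714 (0.528 to 0.957). Ratios in committed precursor-like (0.598), oligodendrocyte precursor-like (0.640) and thalamus-like cells (0.747) had intervals that held 1, as did microglia-like cells at 0.968, and the values above 1 were 1.05 in endothelial-like and 1.06 in MHb-like cells. Under the other settings the microglia-like, MHb-like, endothelial-like and thalamus-like ratios lay on either side of 1, while the oligodendrocyte-like ratio stayed between 0.660 and 0.743 and the astrocyte-like ratio between 0.425 and 0.550. For LHb-like neurons the ratio was 0.911 with both libraries at the same cluster proportions. The make-up of other neurons differed as well. Their cluster led by Ctxn3 and Pdyn, with Nr3c1 at 208 CPM in control, made up 25.5% of them in control and 15.7% in foot shock. Within that cluster the ratio was 0.717 (0.430 to 1.15). In the largest low-Pou4f1 part put with other neurons, Nr3c1 was at 68.9 and 30.9 CPM (54 and 14 UMIs). The median depth of thalamus-like cells was 7029.5 against 3569 UMIs, and the mean over cells gave 1.02 there. Of all measured genes, 13.6% of 9118 in oligodendrocyte-like cells and 21.3% of 6482 in astrocyte-like cells were lower by at least 1.5 times. The shares were 11.2% of 9463 in other neurons and 5.98% of 11661 in LHb-like neurons. Of these 4 classes, Nr3c1 passed that fold in astrocyte-like cells and other neurons. Its rank by ratio, from the highest, was 7675, 5877, 9177 and 10681 in the order of the classes just given. It also passed the fold in committed precursor-like and oligodendrocyte precursor-like cells, where 17% of 4079 and 18.6% of 5077 genes were lower by it. The median log2 ratio of all measured genes was itself below 0 in all 11 classes compared, from -0.03 in MHb-like to -0.11 in oligodendrocyte-like cells.

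In oligodendrocyte-like cells 6 of the 8 induced genes were higher in foot shock by at least 1.5 times and 0 were lower, against 5.81% of all measured genes higher and 13.6% lower. Their median log2 ratio was 1.10, and that of all 9118 genes -0.11. Together the 8 genes went from 561 CPM in control to 1283 in foot shock, a ratio of 2.29 (2.13 to 2.45). Own markers differed little between the libraries in these cells (12108 and 12407), and markers of other cell types were low: the 7 general neuron markers summed to 254 and 328 CPM and the 8 epithelial markers to 0.423 and 1.78, with 7 and 5 of those 8 at 0.

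Nfkbia (chromosome 12, 55489410 to 55492647, minus strand) had the highest ratio of the set in these cells. It was at 26.6 CPM in control and 218 in foot shock, a ratio of 8.19 (6.26 to 10.9) that ranked 4 among all measured genes. The control level lay below the free RNA of that library (31.3) and the foot shock level above its own (105). Cdkn1a (chromosome 17, 29090976 to 29100727, plus strand) went from 10.1 to 55.3 CPM, 5.45 times (3.45 to 8.93), at rank 6. It had free RNA levels of 4.44 and 36.3, so that it was higher outside cells as well. Ddit4 (chromosome 10, 59949669 to 59951834, minus strand) was at 78.6 and 325, a ratio of 4.13 (3.49 to 4.90) at rank 12, and free RNA was at 28.8 and 51.3.

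Fkbp5 (chromosome 17, 28399094 to 28517527, minus strand), the feedback gene of the receptor, had levels of 21.98 and 53.5 CPM and a ratio of 2.43 (1.71 to 3.49). Klf9 (chromosome 19, 23141226 to 23168134, plus strand) was at 154 and 293, a ratio of 1.91 (1.66 to 2.19). Errfi1 (chromosome 4, 150853919 to 150868892, plus strand) was at 92.1 and 140 with a ratio of 1.52 (1.26 to 1.84), just past the fold of 1.5. The other members did not pass the fold. Tsc22d3 (chromosome X, 140539528 to 140600659, minus strand) was at 148 and 166, a ratio of 1.12 (0.955 to 1.32), and both levels were below free RNA (220 and 259). Zbtb16 (chromosome 9, 48654297 to 48836222, minus strand) was at 30.0 and 32.1, a ratio of 1.07 (0.737 to 1.55), well above its free RNA levels of 2.22 and 1.81.

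**Figure D2:**
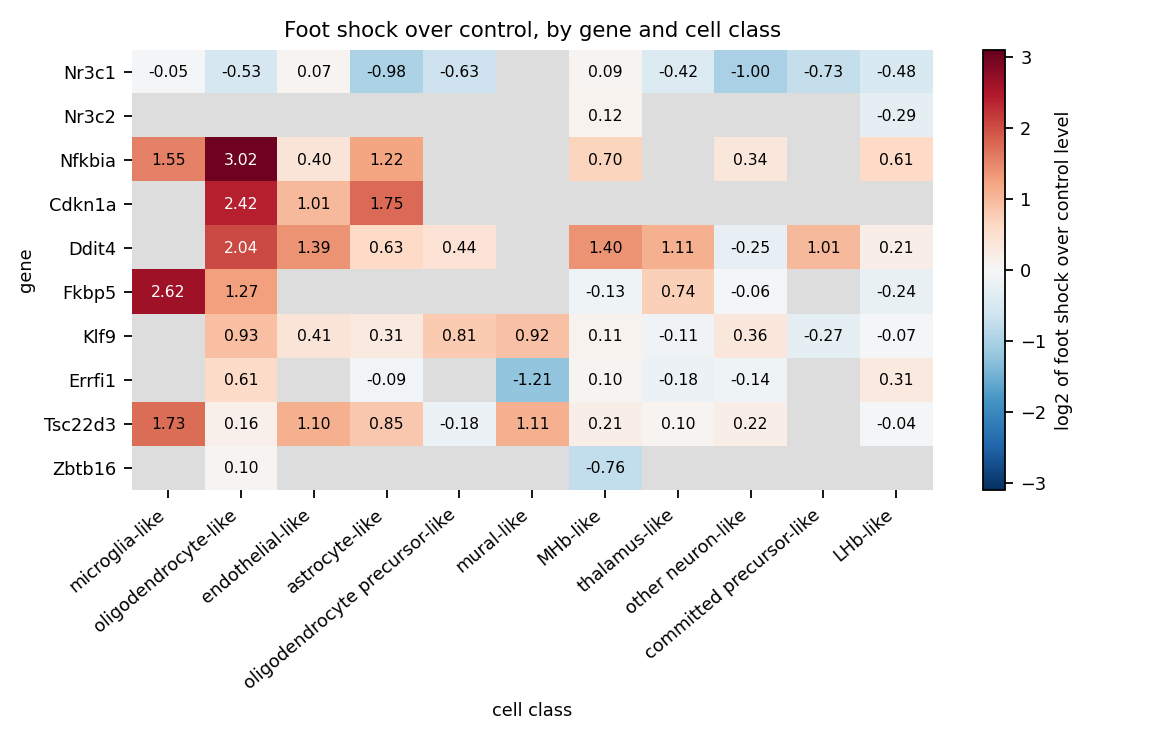
Log2 of the foot shock over control level for the 10 genes (rows) in 11 cell classes (columns, in order of the ratio of the 8 induced genes summed); grey marks a gene with under 20 UMIs over both libraries. The oligodendrocyte-like column holds the highest measured values of Nfkbia (3.02), Cdkn1a (2.42) and Ddit4 (2.04).

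The ratios were alike in the 2 clusters that make up the oligodendrocyte-like class, which took nearly the same shares of it in control and foot shock (60.7% and 60.0% for the cluster with Opalin and Il33 among its leading genes). Nfkbia had a ratio of 8.70 (6.15 to 12.6) in that cluster and 7.50 (4.88 to 11.99) in the cluster led by Hapln2 and Anln. Ddit4 gave 3.79 and 4.84, Cdkn1a 5.80 and 4.99, Fkbp5 2.45 and 2.41, and Klf9 1.96 and 1.83. Errfi1 differed more, at 1.90 (1.42 to 2.53) and 1.26 (0.972 to 1.62), with the second cluster higher in control (132 against 63.8 CPM). Nr3c1 was at 163 and 157 CPM in control and at 118 and 103 in foot shock.

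**Figure D3:**
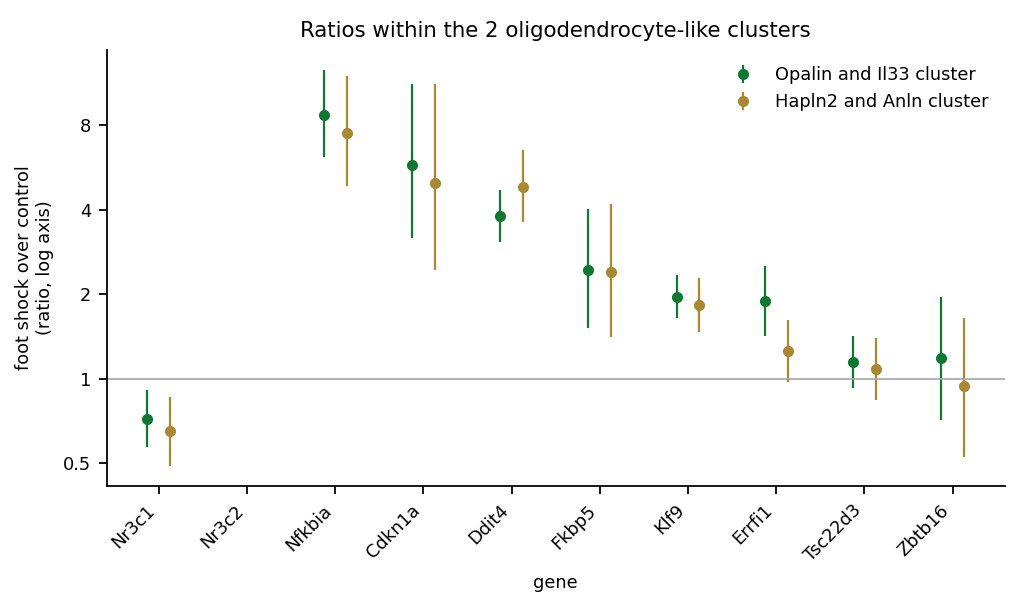
Foot shock over control ratio (log axis) of each gene within the 2 oligodendrocyte-like clusters, with exact 95% intervals for counting error; Nr3c2 had too few UMIs to be shown. Nfkbia, Cdkn1a, Ddit4, Fkbp5 and Klf9 lie above 1 and Nr3c1 below 1 in both clusters.

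More oligodendrocyte-like cells of the foot shock library had a UMI of the induced genes. With every cell thinned to 1000 UMIs, 20.2% of oligodendrocyte-like cells had an Nfkbia UMI in foot shock (17.5 to 23.1, exact Clopper-Pearson) against 2.63% in control (1.76 to 3.77), and 26.1% against 7.22% had a Ddit4 UMI. Without thinning these shares were 34.4% and 5.56% for Nfkbia and 42.5% and 15.2% for Ddit4, at median depths of 1845.5 and 2067 UMIs. The share for Klf9 was 26.2% against 14.0%, for Cdkn1a 5.17% against 1.05% and for Fkbp5 5.32% against 2.17%. Cells with at least 2 UMIs of the 8 genes made up 36.3% in foot shock and 11.1% in control, and those with at least 4 made up 5.34% and 0.359%. No class is known to lack these widely expressed genes, so MHb-like neurons, at median depths of 3493 and 4229.5 UMIs, are given for comparison: 1.76% and 1.26% had an Nfkbia UMI at 1000 UMIs. Nr3c1 was found in 10.7% of oligodendrocyte-like cells in foot shock and 14.7% in control, and in 1.34% and 1.31% of MHb-like neurons.

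**Figure D4:**
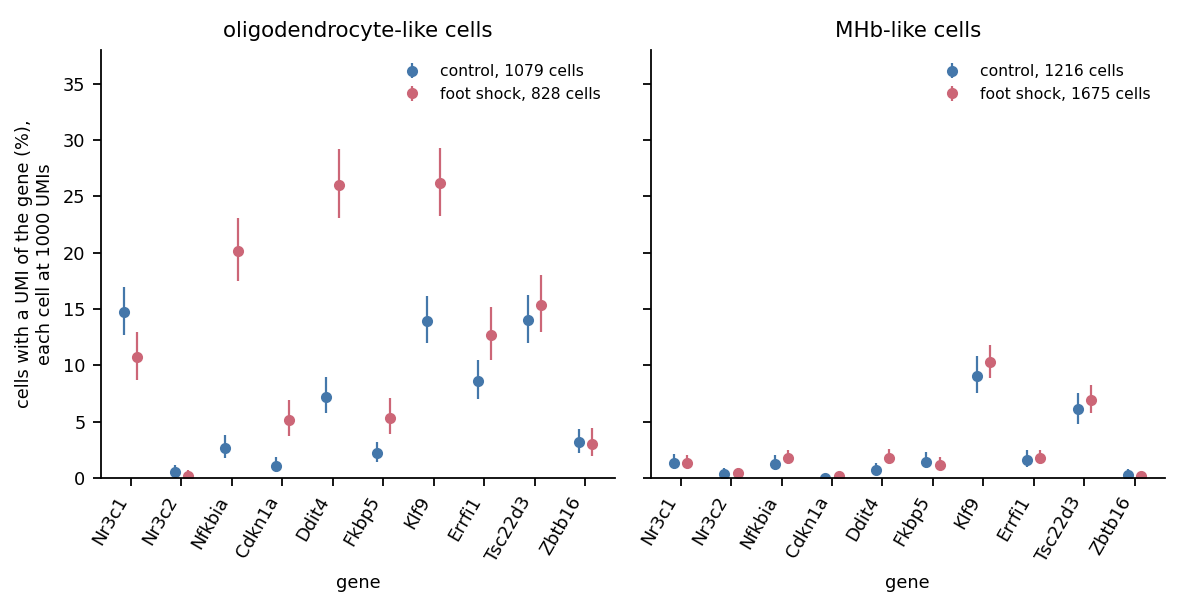
Percent of cells with at least 1 UMI of each gene after thinning every cell to 1000 UMIs, in oligodendrocyte-like (left) and MHb-like cells (right), with exact Clopper-Pearson 95% intervals. In oligodendrocyte-like cells Nfkbia stands at 20.2% in foot shock and 2.63% in control, while no MHb-like share is above 10.3%, that of Klf9.

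Oligodendrocyte-like cells with and without an Nr3c1 UMI had similar summed levels of the induced genes. In control, 316 cells with such a UMI held the 8 genes at 549 CPM and 763 cells without it at 567. In foot shock the values were 1335 (167 cells) and 1268 (661 cells). Single genes differed in both directions there. Ddit4 was at 392 CPM (332 to 461) with such a UMI and 305 (276 to 337) without it. Nfkbia was at 183 (142 to 231) and 228 (203 to 256), and Errfi1 at 109 (78.0 to 147) and 149 (129 to 172). Most cells without an Nr3c1 UMI cannot be called free of the receptor at this depth, and median depths were 2164.5 against 2024 in control and 1973 against 1812 in foot shock.

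Few of the induced genes were measured in earlier stages of the oligodendrocyte lineage. In committed precursor-like cells (92 and 67 cells) 2 genes were measured: Ddit4 had levels of 127 and 258 CPM and a ratio of 2.03 (1.30 to 3.20), and Klf9 was at 292 and 242, a ratio of 0.829. That made 1 of 2 higher and 0 lower, against 13.3% and 17% of all measured genes. In these cells neuron markers summed to 189 and 680 CPM, MHb markers to 272 and 869 and their own 6 markers to 5870 and 5284, and the estimated part of free RNA was 19.8% and 28.2%; the part of these in the ratios was not tested. In oligodendrocyte precursor-like cells (244 and 106 cells) Klf9 was at 125 and 219, a ratio of 1.76 (1.11 to 2.78), Ddit4 at 54.7 and 74.9, a ratio of 1.37, and Tsc22d3 at 73.0 and 64.2, a ratio of 0.880. Here 1 of 3 was higher and 0 lower, against 14.9% and 18.6%; with a minimum of 500 UMIs per cell the number higher was 6. The estimated part of free RNA in this class was 48.3% in control and 58.3% in foot shock. Neuron markers summed to 970 and 1857 CPM, MHb markers to 383 and 1520 and its own 7 markers to 5595 and 3918, and their part in the ratios was not tested. Fkbp5 had 7 and 4 UMIs there, too few to be counted as measured.

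Astrocyte-like cells (593 and 149 cells) had 4 of 6 measured induced genes higher and 0 lower, against 12.6% and 21.3% of all genes. Cdkn1a had levels of 33.2 and 114 CPM and a ratio of 3.44 (1.87 to 6.32), and Nfkbia was at 82.4 and 194, a ratio of 2.35 (1.53 to 3.57). Tsc22d3 was at 522 and 940, a ratio of 1.80 (1.504 to 2.15), and Ddit4 at 109 and 169, a ratio of 1.55 (1.01 to 2.34). Thus Tsc22d3, which barely differed in oligodendrocyte-like cells, was among the genes past the fold here. Klf9 was at 453 and 562 with a ratio of 1.24. Errfi1 was at 21.3 and 19.9 with 0.935, which lay on either side of 1 under other settings. The class holds 2 clusters, and the one with Gfap and Aqp4 as leading genes made up 12.6% of it in control and 20.1% in foot shock. Within the other, main cluster, Cdkn1a gave 3.91 (2.01 to 7.57), Nfkbia 2.62 (1.63 to 4.17) and Tsc22d3 1.65 (1.35 to 2.01), while Ddit4 gave 1.19 (0.703 to 1.93) and was not past the fold. In the smaller cluster Tsc22d3 gave 3.13 (1.98 to 4.96) and Klf9 2.40 (1.26 to 4.57). Fkbp5 had 6 and 8 UMIs (7.98 and 39.8 CPM), under the minimum. With at most 10% mitochondrial UMIs per cell, 2 genes were past the fold; Tsc22d3 was then at 1.44 and Ddit4 at 1.29. Neuron markers summed to 291 CPM in control and 711 in foot shock in these cells, and their part in the ratios was not tested.

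Microglia-like cells (116 and 71 cells) had the highest ratio of the 8 genes summed, 238 CPM in control and 809 in foot shock, or 3.40 (2.37 to 4.96). All 3 measured genes were higher and 0 lower, against 21% and 19.3% of all genes. Fkbp5 was at 21.6 and 149 (4 and 19 UMIs), a ratio of 6.90 (2.29 to 27.9) at rank 10 of 2243 genes. Tsc22d3 was at 75.7 and 259, a ratio of 3.42 (1.78 to 6.92), and Nfkbia at 64.9 and 196, a ratio of 3.03 (1.46 to 6.61). Under the minimum, Ddit4 had 2 and 14 UMIs, Klf9 3 and 11, Zbtb16 0 and 1, Cdkn1a 5 and 0 and Errfi1 4 and 0. The foot shock level of Tsc22d3 equalled that of free RNA (259), and the estimated part of free RNA was 26.2% in control and 45.1% in foot shock. The 7 neuron markers summed to 541 and 1217 CPM in these cells and the 9 MHb markers to 443 and 1814, and their part in the ratios was not tested. With free RNA subtracted the ratios were 9.37 for Fkbp5 and 9.90 for Tsc22d3.

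In endothelial-like cells (64 and 46 cells) 3 of 5 measured genes were higher and 0 lower, against 19.5% and 25% of all genes. Ddit4 had levels of 115 and 308 CPM and a ratio of 2.68 (1.47 to 5.04), Tsc22d3 was at 242 and 525 with 2.16 (1.41 to 3.35), and Cdkn1a was at 160 and 326 with 2.04 (1.19 to 3.55). Nfkbia was high in both libraries, at 479 and 633, with a ratio of 1.32 (0.941 to 1.86), and Klf9 was at 211 and 280 with 1.33. The estimated part of free RNA was 19.1% and 46.2%, neuron markers summed to 440 and 1637 CPM, and the 9 mural markers to 5117 and 1194; their part in the ratios was not tested. With free RNA subtracted, 5 genes were past the fold. In mural-like cells (54 and 61 cells) 2 of 3 measured genes were higher and 1 lower, against 9.5% and 21.8%. Tsc22d3 was at 98.7 and 219 (2.22, 0.920 to 5.91), Klf9 at 197 and 378 (1.91, 1.02 to 3.75) and Errfi1 at 234 and 97.5 (0.416, 0.158 to 0.995). Oligodendrocyte markers summed to 74.0 and 475 CPM in these cells, MHb markers to 271 and 512, endothelial markers to 12.3 and 146 and their own 9 markers to 12297 and 9749, and their part in the ratios was not tested. The number higher was 1 with free RNA subtracted, with a minimum of 500 UMIs, at a fold of 2 and when the interval had also to leave out 1.

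In MHb-like, LHb-like and thalamus-like neurons, the share of measured induced genes that were higher lay above that of all genes, from few genes. In other neurons it did not. Those past the fold in neurons lay below free RNA or had intervals that held 1. MHb-like neurons had 2 of 7 measured genes higher and 1 lower, against 3.86% and 4.21% of all genes. Ddit4 had levels of 6.91 and 18.4 CPM and a ratio of 2.66 (1.80 to 4.01), and Nfkbia was at 12.05 and 19.6, a ratio of 1.62 (1.18 to 2.25). Both were below free RNA in each library (28.8 and 51.3 for Ddit4, 31.3 and 105 for Nfkbia), and free RNA held more of them in foot shock than in control. With free RNA subtracted, Nfkbia came to 0.695 and Ddit4 to 8.70. Zbtb16, the gene past the fold in the lower direction, was at 2.37 and 1.36 (12 and 8 UMIs), with an interval from 0.204 to 1.53. Klf9 was at 107 and 115, above free RNA, with a ratio of 1.08 (0.960 to 1.21). Fkbp5 was at 13.8 and 12.6 (0.911), Tsc22d3 at 66.9 and 77.2 (1.15) and Errfi1 at 16.4 and 17.5 (1.07).

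LHb-like neurons had 1 of 6 measured genes higher and 0 lower, against 3.54% and 5.98% of all genes. That gene was Nfkbia, at 10.9 and 16.7 CPM and a ratio of 1.53 (1.01 to 2.32), below free RNA in both libraries, and nothing was left in foot shock after subtraction of free RNA. Klf9 was at 73.7 and 70.5 with a ratio of 0.956 (0.801 to 1.14), Tsc22d3 at 102 and 98.6 with 0.971 (0.836 to 1.13), Fkbp5 at 18.3 and 15.5 with 0.845, Ddit4 at 20.0 and 23.1 with 1.15 and Errfi1 at 22.1 and 27.5 with 1.24. The pooled Klf9 value covers clusters on opposite sides of 1. It was 1.35 (1.09 to 1.68) in the cluster led by Rasgrf2 and Nap1l5, counted with its cells that were put with other neurons, and 0.823 (0.625 to 1.08) in the cluster led by Tmem255a and Peg10, whose share of the class was higher in foot shock. The 8 genes summed gave 1.01 (0.925 to 1.11).

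The remaining neurons carried Nr3c1 but had summed ratios close to 1. Other neurons (298 and 217 cells), most of them low-Pou4f1 cells of the LHb-like clusters, had 0 of 6 measured genes past the fold in either direction, against 5.58% higher and 11.2% lower. Klf9 was at 89.3 and 114 CPM (1.28, 0.964 to 1.70), Tsc22d3 at 63.8 and 74.1 (1.16), and Fkbp5 at 21.0 and 20.1 (0.957). Nfkbia (1.28), Ddit4 (0.837) and Errfi1 (0.907) also had intervals that held 1. In thalamus-like neurons (130 and 58 cells) 2 of 5 were higher and 0 lower, against 7.42% and 14.7%. These were Ddit4 at 16.9 and 37.7 (2.23, 0.875 to 5.50) and Fkbp5 at 22.1 and 37.7 (1.70, 0.697 to 3.94), both with intervals that held 1, and the number higher was 1 with at most 10% mitochondrial UMIs, with the mean over cells and at a fold of 2. Klf9, with 141 and 45 UMIs, was at 184 and 170 (0.924, 0.646 to 1.30), Tsc22d3 at 59.9 and 64.1 (1.07) and Errfi1 at 30.0 and 26.4 (0.882).

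Set side by side over classes, the receptor level and the ratio of the induced genes had no simple order. Thalamus-like neurons, with Nr3c1 at 207 CPM in control, had a summed ratio of 1.13 (0.886 to 1.43), and committed precursor-like cells, at 141, had 1.08 (0.840 to 1.38). Oligodendrocyte-like cells, at 161, had 2.29, and microglia-like cells, at 97.3, had 3.40. Endothelial-like cells, at 249, had 1.72 (1.42 to 2.08), astrocyte-like cells, at 197, had 1.66 (1.48 to 1.87) and oligodendrocyte precursor-like cells, at 167, had 1.4999 (1.13 to 1.98). The classes with the least Nr3c1 had 1.17 (1.08 to 1.26; MHb-like) and 1.01 (LHb-like), other neurons 1.11 (0.938 to 1.32) and mural-like cells 1.43 (0.981 to 2.10). Over the 11 classes, the log2 level of Nr3c1 in control and the median log2 ratio of the measured genes gave a Pearson r of 0.35 and a Spearman rho of 0.20; over the 9 classes other than MHb-like and LHb-like cells they were -0.24 and -0.18. The points share 2 libraries, their depth and their free RNA, and the genes measured differ between classes. The summed ratio weighs genes by their UMIs. Of 1143 control UMIs of the 8 genes in MHb-like neurons, 542 were of Klf9 and 339 of Tsc22d3. In thalamus-like neurons these were 141 and 46 of 254, and in oligodendrocyte-like cells 364 and 350 of 1328. The Ddit4 ratios of 2.66 in MHb-like and 2.23 in thalamus-like neurons thus add little to the sums.

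**Figure D5:**
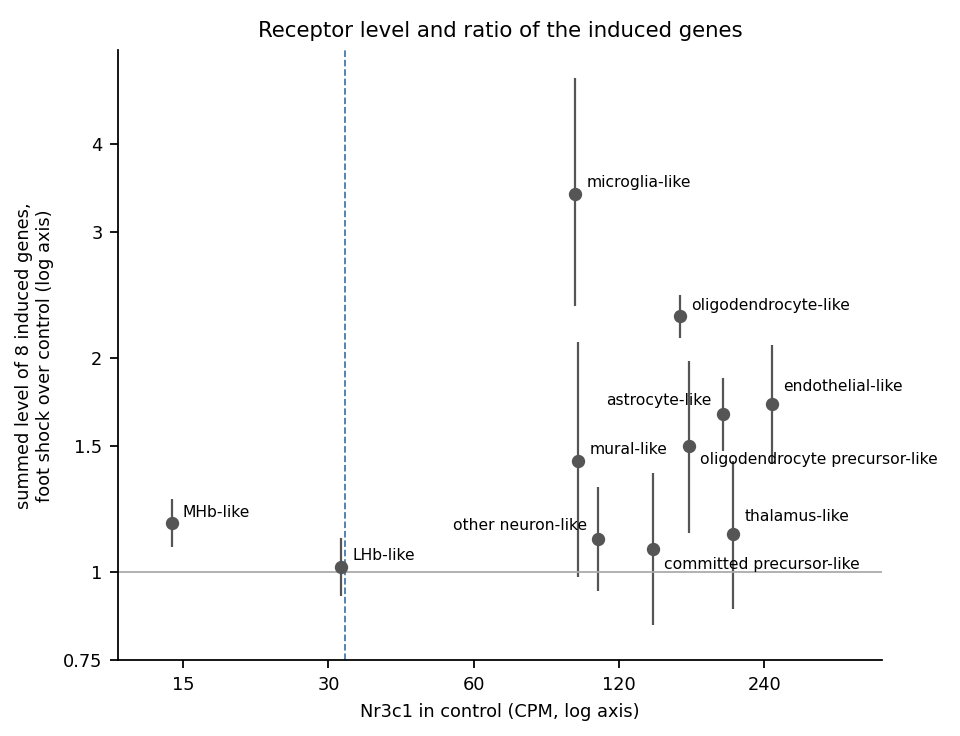
Nr3c1 level in control (log axis, CPM) against the foot shock over control ratio of the 8 induced genes summed (log axis) for 11 cell classes, with exact 95% intervals of the ratio for counting error; the dashed line marks Nr3c1 in free RNA. Glial and vascular classes other than committed precursor-like cells lie above 1.4, and the 4 neuron classes lie between 1.01 and 1.17 whether Nr3c1 is low or high. The sum weighs genes by their UMIs, so genes of low level add little to it.

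Other genes known to be induced by glucocorticoids were looked at from a list of 18 genes. In oligodendrocyte-like cells 5 of 10 measured were higher by the fold and 2 lower, against 5.81% and 13.6% of all genes, with a median log2 ratio of 0.67. The largest ratio was that of Sgk1, a kinase gene, at 71.4 and 1315 CPM or 18.4 times (15.7 to 21.7), followed by the clock gene Per1 at 4.78 and Arrdc2 at 3.61. Bcl6, a transcriptional repressor, had the smallest at 0.440, followed by the lipid droplet gene Plin4 at 0.500. In astrocyte-like cells 5 of 9 were higher and 1 lower (median 0.84), against 12.6% and 21.3% of all genes, with Per1 at the top (2.55) and Hif3a at the bottom (0.660). In microglia-like cells 2 of 4 were higher and 1 lower, against 21% and 19.3% of all genes, from the metallothionein Mt2 at 17.4 down to Mertk at 0.484. Mt2 had levels of 21.6 and 377 CPM there, from 4 and 48 UMIs, both below free RNA (822 and 1357), and the free RNA part of this class was also higher in foot shock, as given above. MHb-like neurons had 5 of 9 higher and 1 lower, against 3.86% and 4.21% of all genes, and LHb-like neurons 2 of 8 higher and 0 lower, against 3.54% and 5.98%, with Sgk1 at 7.41 and 1.61. Every one of these higher genes lay below free RNA in both libraries. In MHb-like neurons Mt2 was at 55.7 and 156 CPM, and Fam107a at 1.58 and 7.15 against 22.5 and 27.7 in free RNA. Map3k6 in LHb-like neurons was at 5.71 and 10.1 against 23.8 and 31.6.

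In oligodendrocyte-like cells, genes of the machinery around the receptor passed the fold at shares near those of all genes. Of 21 genes for chaperones, cofactors and hormone handling, 16 were measured in these cells, 0 higher and 2 lower by the fold, against 5.81% and 13.6% of all genes, with a median log2 ratio of -0.12 that is close to that of all genes. The extremes were the chaperone Hspa8 at 1.26 and the coactivator Ncoa3 at 0.397 (85.4 and 33.9 CPM). The chaperone Hsp90aa1, which holds the receptor ready for hormone, was at 1.19 there, and had the highest ratio of the list in astrocyte-like (2.24), microglia-like (1.87) and endothelial-like cells (4.06), from control levels of 86.4, 168 and 140 CPM that lay below free RNA (404). Of this list 2 of 17 were higher and 3 lower in astrocyte-like cells (all genes 12.6% and 21.3%), 0 of 16 and 0 in MHb-like (3.86% and 4.21%) and 0 of 18 and 1 in LHb-like neurons (3.54% and 5.98%).

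Lists of genes from other pathways that share members of the set were counted in the oligodendrocyte-like cells, where 5.81% of all measured genes were higher by the fold and 13.6% lower. Of the NF-kB target genes other than Nfkbia, 2 of 12 were measured in oligodendrocyte-like cells, Nfkb1 at 0.573 and Relb at 0.804, so that 0 were higher and 1 lower. Of the p53 targets other than Cdkn1a, 7 of 10 were measured, 0 higher and 4 lower, with a median log2 ratio of -0.68; Zmat3 had the largest ratio (1.35) and Bbc3 the smallest (0.422). Of 9 integrated stress response genes, 4 were measured, 0 higher and 1 lower, from Atf4 at 1.00 to Ppp1r15a at 0.658. Of 20 rapid immediate early genes, 5 were measured, 1 higher and 1 lower, from Nr4a1 at 1.80 to Arc at 0.577. In MHb-like neurons the immediate early genes had 6 of 15 higher and 0 lower, against 3.86% and 4.21% of all genes, with Egr1 at the top (3.42). Egr1 was at 5.53 and 18.9 CPM there, below free RNA (7.76 and 23.1), and other genes past the fold lay on either side of free RNA. In LHb-like neurons 4 of 14 were higher and 1 lower, against 3.54% and 5.98%, with Fos at the top (3.69). Fos was at 7.61 and 28.1 CPM there, below free RNA (15.5 and 72.8), while Egr1 was above it, at 14.5 and 39.2. Free RNA held more of both genes in foot shock, and its part in these ratios was not tested. In endothelial-like cells 0 of 14 were higher and 11 lower, against 19.5% and 25%. Mural-like cells had 0 of 8 higher and 8 lower, against 9.5% and 21.8%. Mural markers in endothelial-like cells were at 5117 and 1194 CPM, and their part in the endothelial-like count was not tested.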

How the data were processed

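Droplet RNA sequencing with 3' version 2 chemistry was made on habenula punches, 1 library per group. Per the submitters' processing notes, Cell Ranger 2 and mm10 were used; the deposited values are UMI counts per gene and barcode, with the annotation release not given in the sources used here. Of 28692 gene identifiers, 28339 occur in GENCODE vM21, which gave the positions.

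Cells had at least 1000 UMIs, 500 to 6000 genes and at most 20% mitochondrial UMIs. Scrublet in scanpy 1.11.5 at an expected 8% marked 249 control (4.85%) and 69 foot shock (1.43%) cells as doublets, which were left out. Cells of both libraries were clustered together (2000 variable genes without the listed genes, 30 components, 15 neighbours, leidenalg 0.10.2 at resolution 1), giving 27 clusters. A cluster took a name with at least 3 of a type's markers, each in 10% of its cells and at 33.3% of the highest cluster or more; 7 and 35 cells of mixed clusters were left out. LHb-like parts under 1 Pou4f1 UMI per 10000 were put with other neurons. Class counts were summed, log2 ratios took a prior count of 0.5, and intervals came from scipy 1.17.1 and were tested on simulated data. All members were named; of 6 other gene lists (other glucocorticoid-induced genes, receptor chaperones and cofactors, NF-kB targets, p53 targets, integrated stress response genes, rapid immediate early genes) up to 3 genes with the largest and smallest ratio were. Of 18 alternatives, 1 was added after the data were seen. The members and lists were chosen with earlier results of these data known.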

Additional observations from a re-analysis of the deposited data

Results flagged for a closer look

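Errfi1 stood on opposite sides of 1 in 2 classes. Its foot shock over control ratio was 1.52 in oligodendrocyte-like cells and 0.416 in mural-like cells, each with an interval that left out 1, and the difference between the classes was not tested.

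Members were also found in cells that entered no comparison, since the control library held 0 of them, at levels whose intervals lay above free RNA. In the 503 epithelial-like cells of the foot shock library, Ddit4 was at 300.0 CPM, Cdkn1a at 71.4, Errfi1 at 38.9 and Fkbp5 at 33.2, against 51.3, 36.3, 24.4 and 11.4 in free RNA. In its 45 fibroblast-like cells, Errfi1 was at 516 and Ddit4 at 293 CPM. Nfkbia was at 237 (138 to 380) in them against 105 in free RNA, and Fkbp5 at 55.8 (15.2 to 143) from 4 UMIs. Whether shock changed these levels cannot be told from 1 library.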

How the results depend on the processing

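With 1 library per group no replicate could be left out and no interval covers the spread between animals. No paired analysis was possible because each group holds 1 library. In oligodendrocyte-like cells the number of induced genes higher was 6, and also under the alternatives run other than at most 10% mitochondrial UMIs (5) and a fold of 2 (4). Nfkbia turned below 1 with free RNA subtracted, to 0.695 in MHb-like neurons and to 0 in LHb-like neurons. In LHb-like neurons the number of induced genes higher was 0 rather than 1 with at most 10% mitochondrial UMIs, with the mean over cells, with free RNA subtracted, at equal cluster weights and at a fold of 2. In MHb-like neurons it was 1 rather than 2 with the mean over cells, at equal cluster weights and at a fold of 2, and in astrocyte-like cells 2 rather than 4 with at most 10% mitochondrial UMIs or a fold of 2.

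The Nr3c1 level in control was 38.03 CPM in LHb-like and 187 in oligodendrocyte-like cells when mitochondrial and ribosomal protein genes were left out of the totals, and the foot shock level in oligodendrocyte-like cells was 131. With free RNA subtracted it was 9.65 in MHb-like, 238 in astrocyte-like and 179 in oligodendrocyte-like cells of control. TMM scaling (edgeR 4.0.16) moved log2 ratios by 0.10 in oligodendrocyte-like cells and by less in the other classes. Of the ratios under an alternative, 714 of 737 stayed within their interval, 21 moved beyond it and 2 reversed. Other kinds of result moved more often. The shares of cells, taken at 2000 UMIs or without thinning, moved in 134 of 200 cases. The number of induced genes higher in a class moved in 24 of 133. Depth limits Nr3c2 and Zbtb16, which were measured in 2 of 11 classes each.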
